A study of Mus musculus with 20 samples.

Results

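Serpina1c and Serpina3k are serpin genes of mouse chromosome 12 with 1 listed cytosine each in a table of 5-methylcytosine (m5C) sites in mRNA, so that 2 of 32378 listed sites are described here. Both were taken by gene symbol, and the genes had been chosen by their m5C levels in KO and WT liver, so these levels are given as a description without a test. The table came from bisulfite sequencing of mRNA from heart, kidney, spleen, small intestine and liver of wild-type animals (WT) and of animals lacking Nsun6 (knockout, KO). Each genotype had 2 libraries per tissue, which makes 20 libraries. Per the study's methods the tissues were taken whole from 8-week-old female mice, and the KO strain was made in C57BL/6J embryos by removing exons 3 and 4 of Nsun6 with CRISPR/Cas9 in the germ line, so the gene was missing in every cell type. Whether 2 libraries of 1 group came from separate animals is not stated, so the spread between them may be technical. Bisulfite turns unmethylated cytosine into a base sequenced as T, so the m5C level was taken as the share of the reads over a site that kept C. The table holds selected cytosines and not whole mRNAs, since each of the 32378 sites reached a level of 0.1 with 20 reads or more and 3 or more of them unconverted in some library. A site with fewer than 10 reads in a library has no value there.

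Serpins are protease inhibitors that trap their target with a reactive loop near the carboxyl end of the protein, and liver secretes many of them into blood. Serpina1c belongs to a cluster of mouse alpha-1-antitrypsin genes, whose human relative restrains neutrophil elastase. Serpina3k belongs to an expanded mouse cluster related to human alpha-1-antichymotrypsin and is known as a kallikrein-binding protein of plasma. Nsun6 is an RNA methyltransferase that places m5C on a cytosine followed by TCCA, a sequence written here as CTCCA with the methylated base first.

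The Serpina1c site was the C at chr12:103897070-103897070 (GRCm38, minus strand), in coding exon 3 of 5. It was base 903 of an mRNA of 1361 bases and the third base of codon 290, with 369 coding bases after it. The Serpina3k site was the C at chr12:104345380-104345380 (GRCm38, plus strand), in the last exon, exon 5 of 5. It was base 1293 of an mRNA of 2057 bases and base 1 of codon 406, with 38 coding bases after it. The 29 bases around each site are shown because the genes differ in the bases that follow the cytosine, and the capitals mark the site and the 4 bases after it, read from the RefSeq genome of build GRCm38 at chr12:103897056-103897084 and chr12:104345366-104345394.
Serpina1c: agcaaggagctcatCTCCAagttcctgct
Serpina3k: atcacacaagtgctCAGAGtatcctcttt

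The Serpina1c site thus carried CTCCA, and the Serpina3k site carried CAGAG. The first of these stood at 302 of the 32365 listed sites with sequence (0.933%) and at 0.749% of all C in annotated protein coding transcripts, and the second stood at 680 listed sites (2.10%). CTCCA occurred at 3 places in the Serpina1c mRNA, at bases 42, 385 and 903, all of them coding, and the site table holds base 903 alone. It occurred at 2 places in the Serpina3k mRNA, at base 1022 in the coding part and at base 1945 in the 3′ UTR, and the table holds neither.

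**Figure D1:**
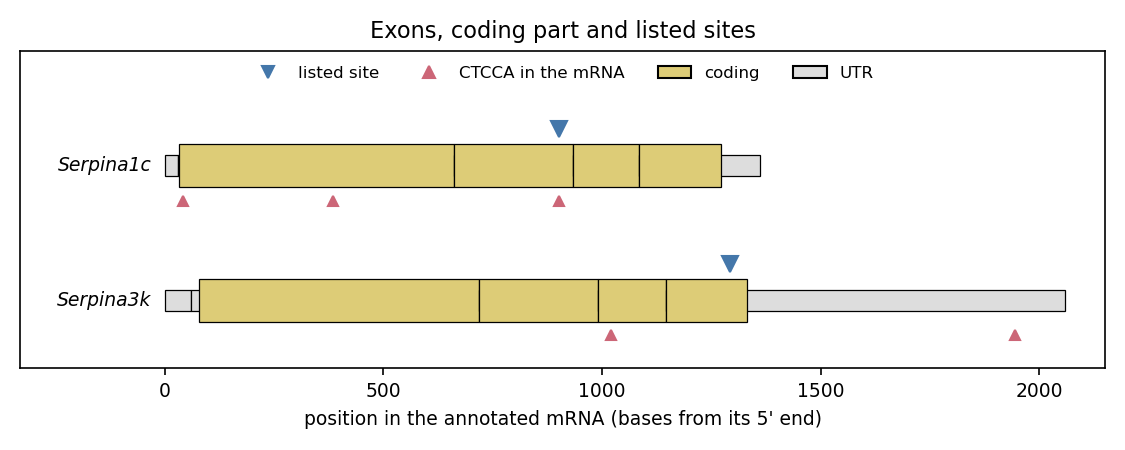
Exons, coding part and sites of the Serpina1c mRNA (1361 bases) and the Serpina3k mRNA (2057 bases), with the position in bases from the 5′ end on the x axis. The listed Serpina1c site at base 903 sits on a CTCCA in exon 3, and the listed Serpina3k site at base 1293 lies close to the end of the coding part and away from both CTCCA of that mRNA.

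The Serpina1c site was unconverted in a minor share of the reads of WT liver, a mean level of 0.104, and in no read of KO liver. In WT liver it had 1314 unconverted of 12685 reads in replicate 1, a level of 0.104 (95% exact interval 0.0983 to 0.109), and 1866 of 17771 reads in replicate 2, a level of 0.105 (0.101 to 0.110). In KO liver it had 0 of 10870 reads in replicate 1, which allows a level of up to 0.000276, and 0 of 9582 reads in replicate 2, which allows up to 0.000313. Both WT libraries were thus above both KO libraries, and the WT libraries differed from each other by less than their intervals. The mean level was 0.104 ± 0.00100 (SD, n = 2) in WT, and the 20452 KO reads together allow a level of up to 0.000147. Intervals and limits of this kind cover counting error only, since reads were not counted as molecules.

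The Serpina3k site had the opposite order, with a mean level of 0.180 in WT liver and 0.309 in KO liver. It had 3692 unconverted of 20668 reads in WT replicate 1, a level of 0.179 (0.173 to 0.184), and 886 of 4912 reads in WT replicate 2, a level of 0.180 (0.170 to 0.191). In KO liver it had 4677 of 15407 reads in replicate 1, a level of 0.304 (0.296 to 0.311), and 4267 of 13561 reads in replicate 2, a level of 0.315 (0.307 to 0.323). Both KO libraries were above both WT libraries, and no interval of one genotype reached one of the other. The mean was 0.180 ± 0.00123 in WT and 0.309 ± 0.00784 in KO (SD, n = 2 each), a KO minus WT difference of 0.130 and a ratio of 1.72. The WT levels lay inside each other's intervals although their coverage of this site differed, at 1.17% and 0.216% of the library's reads over all listed sites.

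**Figure D2:**
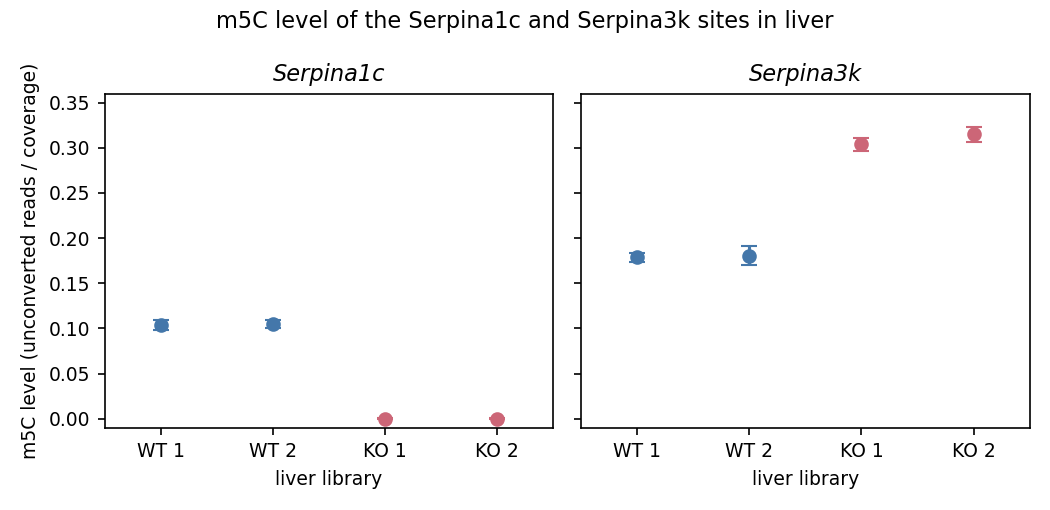
m5C level of the Serpina1c and Serpina3k sites (y axis, unconverted reads over coverage) in each liver library, 2 WT in blue and 2 KO in red, with 95% exact binomial intervals as bars. Serpina1c stood at 0.104 and 0.105 in WT and at 0 in both KO libraries, while Serpina3k stood at 0.179 and 0.180 in WT and at 0.304 and 0.315 in KO.

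The nonconversion rate, the authors' estimate of the share of unmethylated C that escapes bisulfite, is the same for all sites of a gene in a library. For Serpina1c in liver it was 0.00135 and 0.00111 in WT and 0.00097 and 0.00104 in KO, and for Serpina3k it lay between 0.0005 and 0.00154. The WT levels of both sites were far above these rates. The Serpina1c site in KO was below them, since the rates multiplied by its reads come to 10.5 reads in KO replicate 1 and 9.97 reads in KO replicate 2 where 0 were unconverted. Of the 78 listed sites with at least 1000 reads in both KO liver libraries 17 had no unconverted read in either, and after Serpina1c the one with most reads was in Fgl1, with 5969 KO reads.

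Both levels can be read against the other liver sites. Of the 154 liver sites with at least 20 reads in all 4 libraries that met the criteria (2 or more unconverted reads in each library of WT or of KO, with a mean level of 0.05 or above there), 35 (22.7%) had both KO libraries below both WT libraries and 42 (27.3%) had both KO libraries above. Groups of 2 that do not overlap were therefore common among the 154, where entry through 1 high genotype alone favours them. Of all 4903 listed sites with at least 20 reads in each liver library, 55 (1.12%) had both KO libraries below and 120 (2.45%) above. The median WT level of those 4903 sites was 0. Serpina1c and Serpina3k were at ranks 2 and 3 of the 154 by the lowest coverage over the 4 libraries. By KO minus WT level the Serpina3k site was at rank 5 from the top and the Serpina1c site at rank 24 from the bottom of the 154. Both genes had been chosen by these levels, so their ranks are a description only. By the edgeR test 1 of the 154 sites (0.649%) was lower in KO and 3 (1.95%) were higher at an adjusted p under 0.05, the sites of Serpina1c and Serpina3k being in that fit without a p of their own here. These counts rose widely when a WT library was left out and did not rise when a KO library was. Such a fit keeps a single library in 1 group, so the spread within that genotype no longer enters the test.

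Of the 154 sites 5 carried CTCCA, namely those of Serpina1c, H2-Aa, Pcsk6, Csf1r and Hgsnat, and all 5 had 0 unconverted reads in both KO libraries. Of the 107 sites that met the criteria in WT with enough reads in KO 14 (13.1%) had 0 in both KO libraries, and 15 sites met the same rule with the genotypes traded. H2-Aa, a class II antigen presentation gene, had a WT mean of 0.0831 ± 0.0345 and 135 KO reads. Pcsk6, a proprotein convertase, had 0.138 ± 0.110 and 97 KO reads. Csf1r, the receptor of a macrophage growth factor, had 0.328 ± 0.00580 and 81 KO reads, and Hgsnat, a lysosomal acetyltransferase, had 0.176 ± 0.0622 and 61 KO reads (SD, n = 2 each). The Serpina1c site had 20452 KO reads, so its limit of 0.000147 was far under those of the other sites, which ran from 0.0222 in H2-Aa to 0.0492 in Hgsnat.

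Among the 154 sites 7 had at least 1000 reads in each of the 4 liver libraries. Serpina1c was the only one of them with both KO libraries below both WT libraries. For 5 sites both KO libraries were above, namely Serpina3k, Alb, Rpl23, Rpl34 and Rps9, and the site of Ces1c overlapped between genotypes. With the chosen Serpina1c and Serpina3k left out, 4 of 5 sites were above and 0 below. Among them Rps9 had a WT mean of 0.0486, under the minimum of 0.05. It entered through KO alone, so its direction was favoured by the criteria. Of all 60 listed sites with this depth, whether or not they met the criteria, 12 had both KO libraries above and 7 had both below. Alb, the gene of serum albumin, had a mean level of 0.140 ± 0.0198 in WT and 0.214 ± 0.00667 in KO, and the ribosomal protein genes Rpl23 and Rpl34 had 0.161 ± 0.0516 and 0.131 ± 0.0129 in WT and 0.238 ± 0.00782 and 0.211 ± 0.00743 in KO. Rps9 had 0.0486 ± 0.0208 in WT and 0.0701 ± 0.00534 in KO, and Ces1c, a carboxylesterase of liver, 0.110 ± 0.0530 and 0.145 ± 0.00687 (SD, n = 2 each). The difference of 0.130 at Serpina3k was larger than those of Alb at 0.0733, Rpl23 at 0.0769 and Rpl34 at 0.0801. Serpina3k had been chosen by its liver levels, and these differences were not tested against each other.

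**Figure D3:**
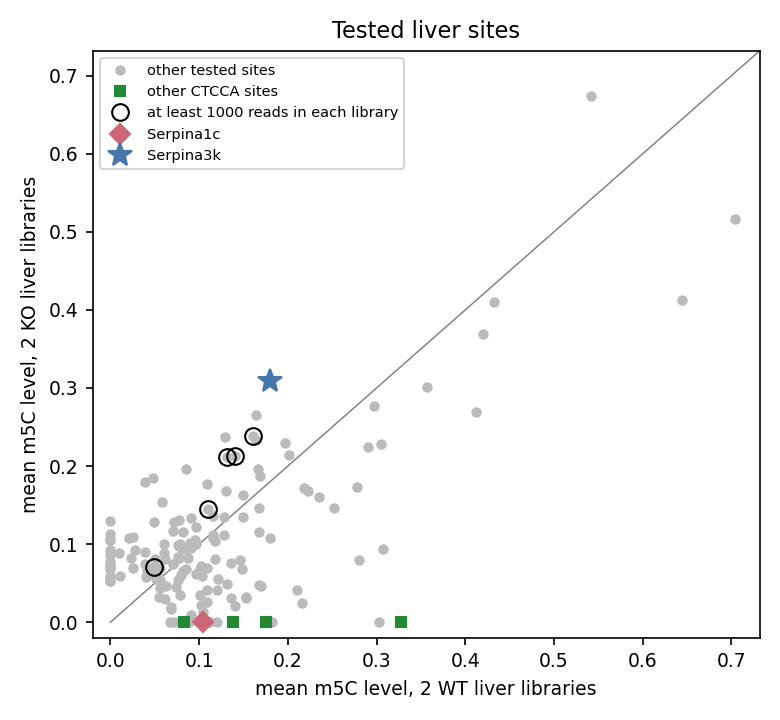
Mean m5C level in 2 WT liver libraries (x axis) against 2 KO liver libraries (y axis) for the 154 sites, with the line of equal levels. Serpina1c lies at 0.104 in WT and 0 in KO with the other 4 CTCCA sites (green squares), and Serpina3k lies above the line at 0.180 and 0.309, as do the circled sites with at least 1000 reads in each library other than Serpina1c.

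The liver libraries differed in other measures that go with the genotype. The pooled level over listed sites that met the criteria in neither genotype was 0.899% and 1.62% in the WT libraries and 0.265% and 0.252% in the KO libraries, lower in KO as at Serpina1c and opposite to Serpina3k. Reads over Alb were 29.99% and 12.5% of all reads over listed sites in WT and 33.4% and 30.2% in KO, and WT replicate 2 also had the lowest share of reads at Serpina3k. In whole tissue a smaller share of a cell type and less RNA per cell cannot be told apart in such shares. Markers of blood-forming and immune cells were highest in WT replicate 1, with erythroid genes at 0.542% of reads against at most 0.00330% in the other liver libraries, and with spleen lymphoid and myeloid genes at 0.277% against 0.0150% to 0.0268%. The part of the pooled level and of these shares in the levels of Serpina1c and Serpina3k was not tested.

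Serpina1c has near copies, and a read can be assigned to a wrong copy. The sequences below align the Serpina1c window with its 4 copies of the alpha-1-antitrypsin cluster, to show that the copies do not carry CTCCA at this place. The capitals again mark the cytosine and the 4 bases after it, all from the minus strand of GRCm38, at chr12:103855719-103855747 for Serpina1a, chr12:103730265-103730293 for Serpina1b, chr12:103765715-103765743 for Serpina1d and chr12:103949062-103949090 for Serpina1e.
Serpina1a: agcaaggagctcatCTCTAagttcctgct
Serpina1b: aacaaggagctcatCTCTAagatcctgct
Serpina1d: aacaaggagctcatCTCTCagttcctgct
Serpina1e: aacaaggagctcatCTCTAagttcctgct

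With positions counted from 1 at the 5′ end of the 29-base window and the Serpina1c base first, all 4 copies had C18T, which turns CTCCA into CTCTA or, with A19C in Serpina1d, into CTCTC. Serpina1a had no other change in the window, Serpina1e also had G2A, Serpina1d had G2A and A19C, and Serpina1b had G2A and T22A. None of these 4 cytosines is in the site table. Within 150 bases either side of the site, 301 bases in all, Serpina1a differed from Serpina1c at 5 places, Serpina1e at 17, Serpina1b at 20 and Serpina1d at 21. After every C was read as T, as in converted reads, the counts were 4, 11, 12 and 13, and C18T was no longer a difference. Serpina1a then shared a run of 151 identical bases with Serpina1c across the site, Serpina1e a run of 30, Serpina1b a run of 19 and Serpina1d a run of 16. A converted read of Serpina1a that lies inside this run cannot be told from one of Serpina1c by its sequence. Per the study's methods the reads were paired and 150 bases long, and a read or mate that reaches past the run meets a base that differs. The coverage of 9582 to 17771 reads may hold reads of other copies, and their share was not tested.

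For Serpina3k the closest copies were Serpina3m, with 57 mismatches in the aligned window and 45 after conversion, and Serpina3c, with 64 and 52. Both had CAGAC at the aligned cytosine, and neither cytosine is in the table. The longest identical run across the site after conversion was 9 bases with Serpina3m and 8 with Serpina3c, so these copies were much easier to tell apart than those of Serpina1c. An annotated Serpina3m transcript spans the Serpina3k gene on the same strand.

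**Figure D4:**
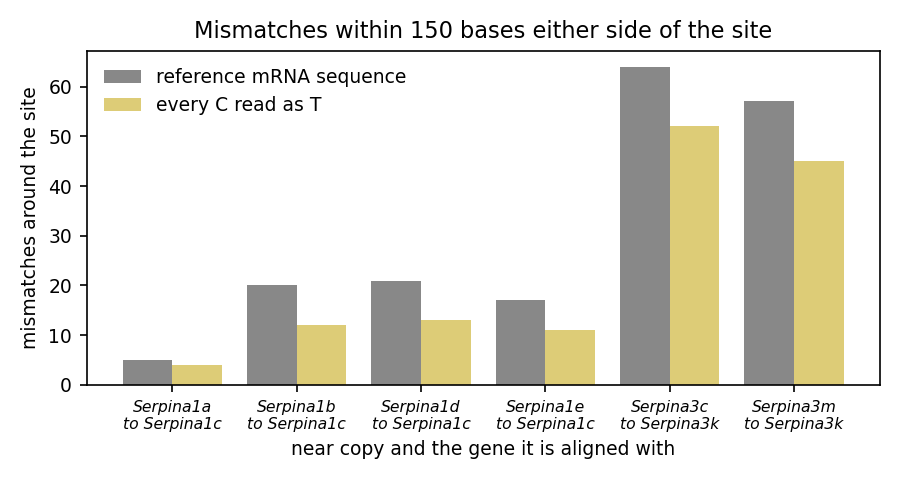
Mismatches (y axis) between each gene and its near copies within 150 bases either side of the site, in the reference mRNA (grey) and after every C is read as T (yellow). Serpina1a, with 5 and 4 mismatches, is the copy closest to Serpina1c, while Serpina3m and Serpina3c have 45 or more to Serpina3k on both readings.

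The predicted probability that the site cytosine is paired, with 50 bases on each side and from the ViennaRNA partition function, was 4.49e-05 in Serpina1c and 0.0237 in Serpina3k, so both were predicted to be mostly unpaired. It was 0.000804 in Serpina1a, 0.0203 in Serpina1d, 0.0212 in Serpina1e and 0.597 in Serpina1b. These are predictions from the reference sequence and not measurements.

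Outside liver both sites were hardly covered. Of the 16 libraries of the other tissues 5 had a value at the Serpina1c site, with 87 reads in all, and 1 had a value at the Serpina3k site, with 15 reads. Serpina1c had 5 unconverted of 23 reads in spleen WT replicate 2, a level of 0.217 with an exact interval of 0.0746 to 0.437. It had 1 of 11 reads in kidney WT replicate 1, 0 of 13 in kidney WT replicate 2, 0 of 30 in kidney KO replicate 1 and 0 of 10 in heart KO replicate 2, where a count of 0 allows levels of up to 0.231, 0.1 and 0.300. Serpina3k had 3 of 15 reads in kidney WT replicate 1, a level of 0.200 (0.0433 to 0.481). All but the spleen value and kidney KO replicate 1 rest on fewer than 20 reads, no tissue outside liver had 20 reads in all 4 libraries, and a difference between genotypes was not detectable at this depth. No small intestine library had a value at either site.

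**Figure D5:**
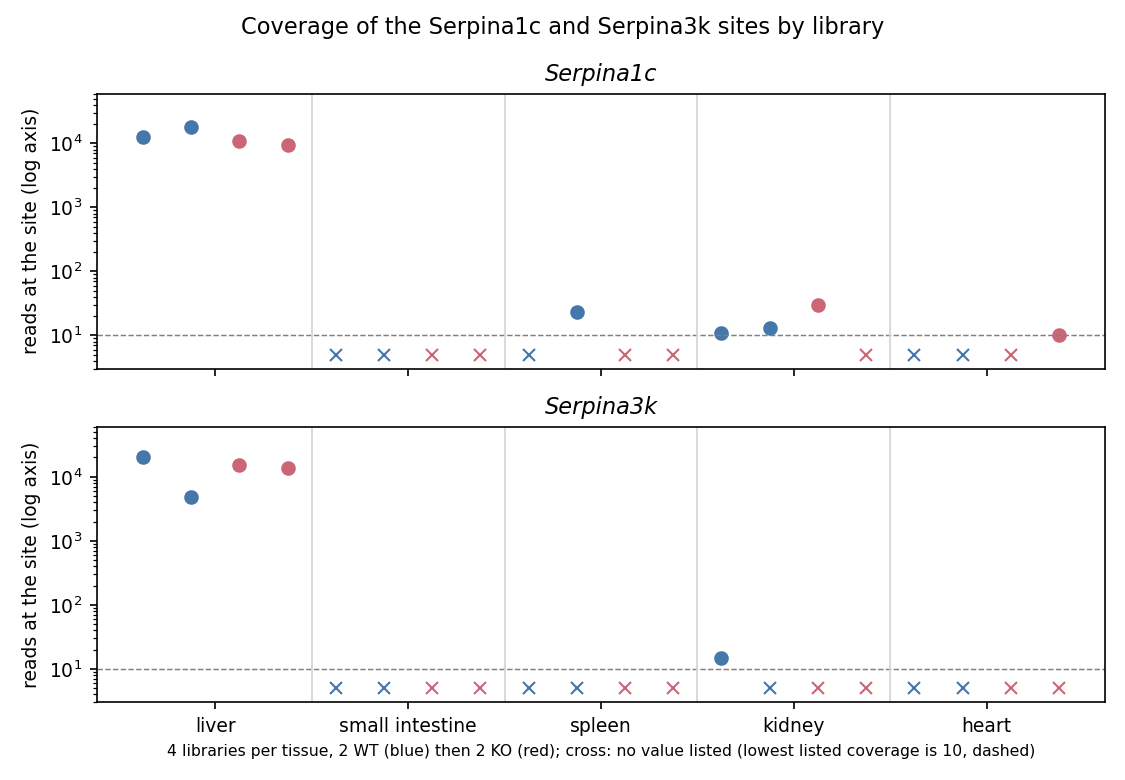
Reads at the Serpina1c and Serpina3k sites (y axis, log scale) in the 20 libraries by tissue, 2 WT in blue and then 2 KO in red, with a cross where no value is listed (fewer than 10 reads). The 4 liver libraries had 9582 to 17771 reads at Serpina1c and 4912 to 20668 at Serpina3k, while no other library had more than 30.

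In liver both sites were among the most covered of the table. Serpina1c took 0.716% and 0.782% of the reads over listed sites in WT and 0.635% and 0.659% in KO, at ranks 7 to 11 among the 12417 to 17389 sites with a value in a library. Serpina3k took 1.17% and 0.216% in WT and 0.900% and 0.933% in KO, at ranks 5 to 39, where the median site had 26 to 40 reads. Serpina1c had a lower share in both KO libraries than in both WT libraries, an order of the means that turned (1.05% in WT and 1.07% in KO) when serpin and hepatocyte marker sites were left out of the total, and the Serpina3k values of WT lay on both sides of those of KO. The coverage of a listed site is no gene level, and the KO against WT contrast had chosen the genes, so these values are a description.

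Over the 20 libraries, log2(reads per 1000000 + 1) of Serpina1c followed Ces1c (Pearson r = 0.966), the apolipoprotein gene Apoc4 (r = 0.965) and Fam47e (r = 0.965) most closely among 2910 genes with enough liver reads, Serpina1c and Serpina3k being kept out of these. That of Serpina3k followed the pseudogene Cyp2d41-ps (r = 0.986), Rtp3 (r = 0.986) and Gulo (r = 0.986), an enzyme of vitamin C synthesis. The sites of Serpina1c and Serpina3k had r = 0.968 with each other. A library without a value was counted as 0, and Serpina1c had a value in 9 of the 20 libraries, Serpina3k in 5 and each of the genes named beside them in the 4 liver libraries alone. The high r thus rests on liver against libraries without a value, so it describes where reads were found and ranks nothing else.

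The liver label was checked with 12 hepatocyte marker genes, of which 5 had a listed site (Ahsg, Alb, Apob, Fgb and Hp). They held 33.4% and 15.2% of the reads over listed sites in WT liver, 36.1% and 32.97% in KO liver and at most 0.575% in any other library. Cardiomyocyte and adipose markers were at 0 in all 4 liver libraries, but also in all spleen libraries. Only 3 of 8 cardiomyocyte and 2 of 4 adipose genes had a listed site. The other lists were not at 0 in the liver libraries. Kidney tubule markers held 0.00106% to 0.00338% of reads, intestinal epithelium markers 0.00654% to 0.0154% and pancreas acinar markers 0.000935% to 0.00197%.

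Other serpin genes had no such liver sites. Of the 12 serpin genes with a listed site, the other 10 had 13 listed sites, 10 of them with a value in liver. Their levels in liver lay between 0 and 0.00365 in the 29 values with at least 20 reads, and none met the criteria in either genotype. The listed site of Serpina1b was the deepest, with 9 of 42708 and 36 of 43241 reads unconverted in WT and 20 of 52465 and 16 of 44111 in KO, levels of 0.000211 to 0.000833. This site is in another exon than the place that aligns with the Serpina1c site, and its levels were near the listed nonconversion rates of 0.0003 to 0.00064. The listed site of Serpina1e had 2 unconverted of 548 reads in KO replicate 1 and 0 of 529 to 1140 reads in the other liver libraries. The sites of Serpinf1, which encodes an antiangiogenic serpin, had at most 2 unconverted reads in a liver library, and those of Serpinf2, the inhibitor of plasmin, had 0.

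Lists of proteases, of the secretory pathway and of transcription factors had 6 sites in the liver test. No link of these genes to Serpina1c or Serpina3k was tested. By edgeR 0 of the 6 were lower and 0 higher at an adjusted p under 0.05, against 0.649% and 1.95% of all 154 sites. At an unadjusted p under 0.05 the count was 1 of 6, higher in KO, and limma called 0 of 6 on either p. Without WT replicate 1 edgeR called 2 lower and 3 higher, without WT replicate 2 it called 0 and 1 (F2), and leaving out a KO library gave 0 lower and 0 higher each time. The median KO minus WT level was -0.00487 over the 6 sites and -0.00285 over the 154. The tested sites of the protease list were in F2, the gene of prothrombin, and Plg, the gene of plasminogen. Whether Serpina1c or Serpina3k acts on either was not tested. F2 (coding exon 2) had a level of 0.0408 and 0.0579 in WT and 0.129 in both KO libraries, a log2 odds change of 1.52 (adjusted p of 0.0638, edgeR). Its groups did not overlap, but its adjusted p missed the threshold. Its WT mean of 0.0494 was under the minimum of 0.05, so it entered the test through KO alone, where it was high. Entry of this kind favours a higher KO level and groups that do not overlap. Over 14 alternatives the direction of F2 was the same. With all 4 libraries kept, it passed at a coverage minimum of 50 (edgeR adjusted p = 0.0353) and with a replicate block (edgeR adjusted p = 0.00219). Fisher's exact test, which ignores the spread between libraries, also called it (adjusted p = 3.57e-11). It missed by limma (adjusted p = 0.234), at a coverage minimum of 10 (edgeR adjusted p = 0.0505) and over all listed sites. The other alternatives left out 1 library, some of them repeats with the criteria re-applied, and gave log2 changes of 1.27 to 1.79. Plg (coding exon 2) had 0.130 and 0.0342 in WT and 0.114 and 0.0735 in KO, with overlapping groups and an adjusted p of 0.842 by edgeR.

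In the secretory pathway list, the genes that fold, export or degrade secreted proteins, 3 sites were tested. Edem2, a mannosidase that marks misfolded glycoproteins, had 0.0809 and 0.341 in WT and 0.0133 and 0.0682 in KO (coding exon 11, edgeR adjusted p = 0.492), so its groups did not overlap and its WT libraries differed widely. Sec61a1, a subunit of the translocon, had 0.412 and 0.452 in WT and 0.369 and 0.451 in KO (3′ UTR, edgeR adjusted p = 0.902). Surf4, a cargo receptor of the endoplasmic reticulum, had 0.144 and 0 in WT and 0.122 and 0.135 in KO (3′ UTR, edgeR adjusted p = 0.846). With a level of 0 in WT replicate 2, Surf4 entered the test through KO alone, which favours a higher KO level. In the transcription factor list, Rela, a subunit of NF-kappa-B, had 0.247 and 0.594 in WT and 0.300 and 0.439 in KO (3′ UTR, edgeR adjusted p = 0.902). The KO values of Rela lay between those of WT, and those of Sec61a1 and Surf4 overlapped with WT. No test of either Serpina site outside liver was possible at the coverage given above.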

How the data were processed

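The deposited table covers all 20 libraries; libraries were assigned to groups by their labels, each column being matched through the sample code given in the labels. Per the file headers its columns hold, per library, the coverage and the unconverted C as read counts, the m5C level as a fraction, and the authors' nonconversion rate, also a fraction. The authors called sites in each library separately; the aligner and the caller version were not given in the sources read, and the submitters' processing notes name the build mm10. The 60 columns of p-values, pass marks and signal fractions were not used. Reads over listed sites came to 1230665 to 4640168 a library.

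Serpina1c and Serpina3k, the gene lists and the tests were chosen with earlier results of these data known. Tested sites had 20 reads in all 4 liver libraries and, in WT or in KO, a mean level of 0.05 with 2 unconverted reads per library. Read counts with and without conversion entered edgeR 4.0.16 (quasi-likelihood test, an intercept per library, a methylation term for genotype, no replicate block, R 4.3.3, two-sided), with Benjamini-Hochberg adjustment over all 154 sites at 0.05. Alternatives were limma 3.58.1 on logit levels with 0.5 added, Fisher's exact test on summed counts, coverage minima of 10 and 50, all listed sites with 20 reads and a replicate block. Each library was also left out, with the 154 sites held fixed and, in runs that were not planned, with the criteria re-applied. Intervals are Clopper-Pearson at 95%, and the limit for 0 is 3 counts over the reads. Sequence came from GRCm38 and GENCODE M21 (copies aligned with MAFFT 7.526, pairing by ViennaRNA 2.7.2), and tables and figures from Python 3.11.15, pandas 2.3.3, numpy 2.4.6, scipy 1.17.1 and matplotlib 3.10.9.

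Genes were named by a rule. It took both members, up to 4 genes per list by the highest liver level among tested sites and any that passed, the 3 genes most alike in coverage, and the aligned near copies. H2-Aa, Pcsk6, Csf1r, Hgsnat, Alb, Rpl23, Rpl34, Rps9, Fgl1, Serpina1f, Serpinb9, Serpine2, Serpinf1, Serpinf2 and Serpinh1 were named after their values were seen.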

Additional observations from a re-analysis of the deposited data

Results flagged for a closer look

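There were 4 sites of the Serpina1 and Serpina3 clusters that stood above the limit of a count of 0 in a library outside liver, in data that entered no comparison of the report. In spleen WT replicate 2 Serpina1c had 5 of 23 reads unconverted, a level of 0.217, above the 0.130 that a count of 0 allows at that depth. In the same library the listed site of Serpina1b had 9 of 88 reads, a level of 0.102 against a limit of 0.0341, and that of Serpina1e had 15 of 29 reads, a level of 0.517 against 0.103. In kidney KO replicate 2 the listed site of Serpina1f had 23 of 39 reads, a level of 0.590, above the 0.0625 of the higher kidney WT library. That WT value rests on 1 of 16 reads in replicate 2, and WT replicate 1 had 0 of 23. The pooled level over listed sites that met the criteria in neither genotype was 2.04% in spleen WT replicate 2. It was 0.880% in spleen WT replicate 1 and 0.364% and 3.69% in the spleen KO libraries. In kidney KO replicate 2 it was 3.26%, against 0.215% to 0.474% in the other kidney libraries. Every listed site has at least 1 library with a level of 0.1 or more, so a high value in a single library is part of how the table was made. No cause of these values was tested.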

How the results depend on the processing

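Among the 6 list sites, of which 0 were lower and 0 higher in KO, Fisher's exact test on summed counts, which ignores the spread between libraries, called 1 lower and 1 higher, a coverage minimum of 50 called 1 higher (F2, adjusted p = 0.0353), and the replicate block called 1 higher (F2, adjusted p = 0.00219). Leaving out a library gave 0 to 2 lower and 0 to 3 higher, with the 154 sites held fixed. That choice was made after seeing the calls with the criteria re-applied to the 3 libraries left, where a site could enter on 1 library: 778 of 924 sites were then lower without WT replicate 1 and 577 of 734 without WT replicate 2, with 9 and 5 list sites lower and 3 and 1 higher, and the turned changes were the same sites at -0.52 (Plg), 0.79 and 0.18 (Rela), -0.17 (Surf4) and 0.12 (Sec61a1). Over all 154 sites, where 1 was lower and 3 higher, there were 35 lower and 42 higher without WT replicate 1 and 15 and 20 without WT replicate 2, against 1 and 0 when a KO library was left out. Limma gave 2 and 0, Fisher's test 32 and 40, a coverage minimum of 50 gave 1 and 5 of 82 sites, all listed sites 1 and 0 of 4903, and the replicate block 2 and 7. The deviations of WT and KO replicate 1 from their group means had r = 0.0753 over the 154 sites. This value cannot exclude a pairing, and the labels do not say whether same-numbered libraries were processed together. Over all listed sites 6 other serpin sites entered the fit and 0 passed by edgeR, 1 of them at an unadjusted p under 0.05. Leaving out a library turned the direction of 4 list sites: the log2 change ran from -0.53 to 1.55 for Plg, from -1.35 to 0.79 for Rela, from -0.17 to 5.89 for Surf4 and from -0.38 to 0.12 for Sec61a1, with Plg, Rela and Surf4 turning without WT replicate 2 and Rela and Sec61a1 without KO replicate 1. The cause was not tested.

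With the pooled level of other sites taken off, the mean liver level of Serpina1c was 0.0917 in WT and -0.00259 in KO, a difference of -0.0943 in place of -0.104, and that of Serpina3k was 0.167 in WT, with a difference of 0.140. As a share of reads outside serpin and hepatocyte marker sites, Serpina1c had 1.05% in WT and 1.07% in KO, in place of 0.749% and 0.647%, so its lower share in KO turned, and Serpina3k had 1.51% in KO in place of 0.917%. Pooling reads moved no level by more than 1 SD. Without a library, the Serpina3k share in WT ran from 0.216% to 1.17%, with the low value being WT replicate 2, and the KO minus WT level ran from -0.105 to -0.104 for Serpina1c and from 0.124 to 0.135 for Serpina3k. Tests and a permutation over tissues outside liver were not run, because no tissue had the reads. Depth limits every statement outside liver.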

Other observations

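The 13 listed sites of the other serpin genes were covered by 20 reads in 87 values outside liver, and 72 of these values were 0. Each of the 13 sites had a level of at least 0.1 in exactly 1 of those libraries. Serpinb9, an intracellular inhibitor of granzyme B, had 13 of 30 and 10 of 27 reads unconverted at its 2 sites in kidney KO replicate 2, and 0 in its other libraries with 20 reads or more. In the same library Serpinf2 had 15 of 80 and 14 of 79 at 2 neighbouring cytosines. Serpinh1, a collagen chaperone of the endoplasmic reticulum, had 20 reads or more in 13 libraries, with 3 of 27 unconverted in small intestine KO replicate 2 and 0 in 11 of the others. Serpine2, an inhibitor of thrombin, had 8 of 74 in spleen KO replicate 2 and 0 in 11 other libraries. The pooled level of sites outside the criteria was highest for their tissues in kidney KO replicate 2 (3.26%) and spleen KO replicate 2 (3.69%). It was lowest for its tissue in small intestine KO replicate 2 (0.234%). Its part in these values was not tested.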
